A study of Mus musculus with 20 samples.

Results

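The genes described here encode the proteins of the mitochondrial ribosome in mouse brain. They are the genes of either deposited count table whose symbol starts with Mrpl or Mrps followed by a digit, pseudogene symbols ending in -ps left out. The rule gave 78 of the 17880 genes listed for at least 1 brain region, 49 named Mrpl and 29 named Mrps, and all 78 were listed for both regions. The rule itself reads symbols and no measured value, and it was set with earlier results of these data known. Trub2 is set beside them, the gene of an enzyme that makes pseudouridine in mitochondrial RNA. It was chosen with its change between genotypes known, so its values are a description and support nothing.

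Frontal cortex and hippocampus of Ncs1-/- mice (KO) and Ncs1+/+ mice (WT) were sequenced. The strain of all mice was C57Bl6/J. Ncs1 is the gene of neuronal calcium sensor 1, which binds calcium in nerve cells. The 20 libraries form 4 groups of 5, KO cortex, WT cortex, KO hippocampus and WT hippocampus. The sources used here do not give how the Ncs1 allele was made, the age or sex of the mice, or whether each library of a group is from another mouse. The p-values therefore rest on the spread between these libraries, which may be partly technical.

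The mitochondrial ribosome makes the few proteins that the mitochondrial genome encodes, nearly all of them subunits of the respiratory chain. Its RNAs come from mitochondrial DNA, while its proteins are encoded in the nucleus, made in the cytosol and imported. Genes named Mrpl encode proteins of the large subunit and genes named Mrps proteins of the small subunit, with a few exceptions: the products of Mrps18a and Mrps30 sit in the large subunit, and that of Mrps36 was later assigned to the α-ketoglutarate dehydrogenase complex. TRUB2 works in human cells with RPUSD3, RPUSD4, NGRN, RCC1L and FASTKD2 in a module that the 16S RNA of the large subunit depends on. The tables list 0 genes of the mitochondrial genome, so that RNA was not analysed here.

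Total counts ranged from 16.6 to 34.6 M per library, with a median of 21.0 M. Ncs1 was lower in KO than in WT libraries of both regions, with 257 ± 3.88 CPM in KO cortex and 365 ± 17.4 CPM in WT cortex, and with 303 ± 19.6 CPM in KO hippocampus and 442 ± 16.2 CPM in WT hippocampus (SD, n = 5 each). CPM here are counts scaled to the depth of the library after TMM scaling, a correction for library composition. The 7 markers of cortical pyramidal neurons summed to 823 to 936 CPM in KO cortex and 860 to 1021 CPM in WT cortex, against 289 to 362 CPM in KO hippocampus and 308 to 403 CPM in WT hippocampus. In the test between regions, 6 of these 7 were called lower and 1 higher in hippocampus, in each genotype. The 7 markers of hippocampal subfields summed to 570 to 674 CPM in KO hippocampus and 463 to 732 CPM in WT hippocampus, against 158 to 171 CPM in KO cortex and 133 to 198 CPM in WT cortex. Cortex libraries also held 7 markers of striatal neurons, at a sum of 726 to 1333 CPM in KO and 672 to 1112 CPM in WT.

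All 78 genes passed the filter on low counts in both regions. Together they made up 1476 ± 33.0 CPM in KO cortex and 1556 ± 60.9 CPM in WT cortex, and 1617 ± 145 CPM in KO hippocampus and 1662 ± 71.05 CPM in WT hippocampus (SD, n = 5 each). The ranges of this sum overlapped between genotypes in both regions, at 1440 to 1527 CPM in KO cortex against 1456 to 1615 CPM in WT cortex. The genes lie on 17 chromosomes and are short, with a median exonic length of 2394 bases against 4091.5 bases over all listed genes. Of the 78, 11 overlap another listed gene, 3 on the same strand and 8 on the opposite strand. Whether strand was used in the counting is not stated in these sources, so such pairs could share reads.

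Levels of different genes can be compared only per length, as CPM per kb of exon, and on that scale the 78 genes spanned 1.07 to 29.9 with a median of 7.61 over the 20 libraries. Mrps21, which encodes a small-subunit protein with a bacterial homologue, had the highest mean over the 20 libraries, with 28.9 ± 1.67 CPM per kb in KO cortex and 30.6 ± 1.40 in WT cortex, and with 30.01 ± 5.73 in KO hippocampus and 30.01 ± 2.33 in WT hippocampus (SD, n = 5 each). In WT hippocampus Mrpl41 had a higher mean than Mrps21, at 31.4 ± 2.64 CPM per kb, and in KO hippocampus it had 29.9 ± 3.35. Mrpl41, Mrpl10, Mrpl18 and Mrps33 followed Mrps21, at means of 28.1, 22.1, 19.9 and 19.9 CPM per kb over all libraries. At the low end were Mrpl47 (1.83 CPM per kb), Mrpl33 (1.70), Mrps10 (1.44), Mrps35 (1.23) and Mrpl23 (1.07). Neighbours in the order mostly could not be separated: of 77 neighbouring pairs, the ranges over the libraries of a group overlapped in 74 pairs in KO cortex, 71 in WT cortex, 71 in KO hippocampus and 65 in WT hippocampus. Mrpl41 lay above Mrpl10 in every library of KO cortex, KO hippocampus and WT hippocampus, and Mrpl13 lay above Mrpl47 in every library of WT cortex, KO hippocampus and WT hippocampus. Per length of the longest transcript in place of all exons, Mrps21 still had the highest mean and Mrpl23 the lowest, but the order between them changed: Mrpl20 stood at rank 2 in place of rank 13, Mrpl10 at rank 6 in place of rank 3, and Mrpl33 at rank 67 in place of rank 75.

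**Figure D1:**
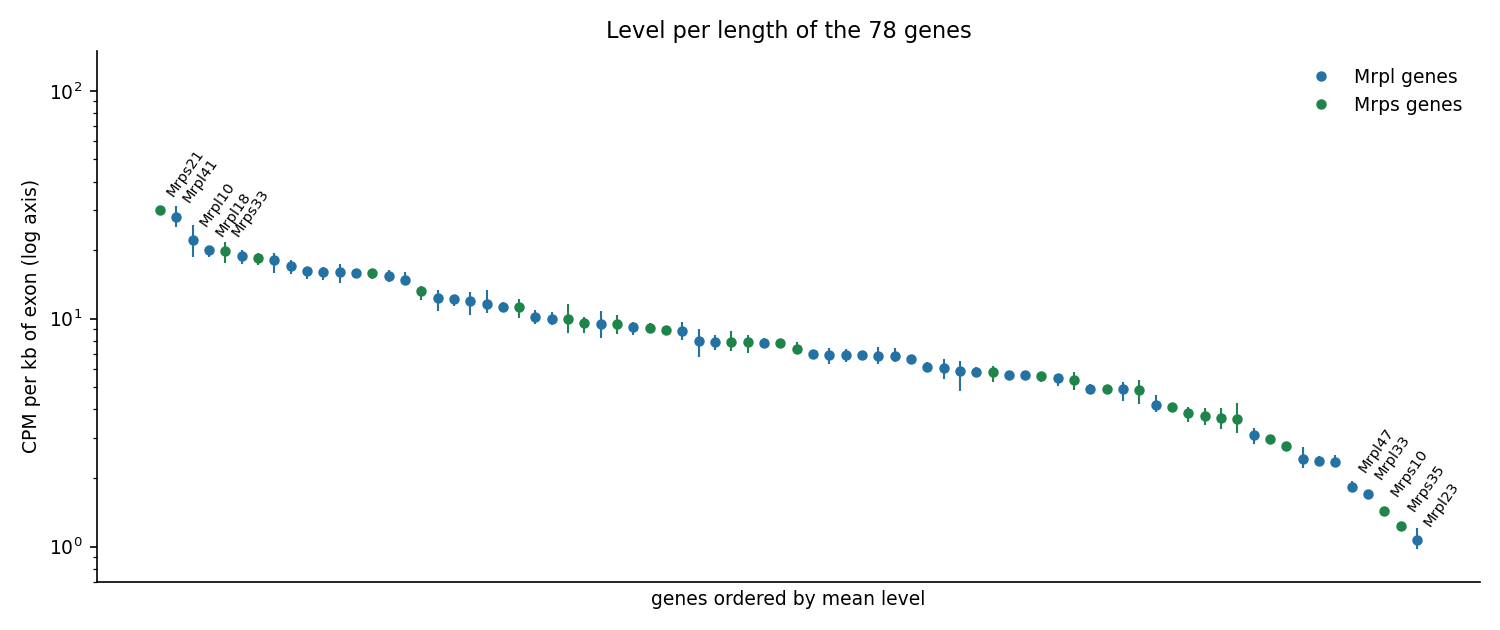
Level of the 78 genes in CPM per kb of exon on a log axis, ordered by the mean over 20 libraries (points); vertical lines span the 4 group means. The levels run from 29.9 for Mrps21 to 1.07 for Mrpl23, and the lines of neighbouring genes mostly overlap.

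Some proteins of the mitochondrial ribosome have bacterial homologues and others were gained later. The 29 genes of the large subunit with a bacterial homologue had a median of 6.93 CPM per kb and the 17 without had 9.52. In the small subunit the medians were 7.61 for 14 genes with a bacterial homologue and 8.93 for 9 genes without. The ranges of these classes overlapped widely, from 1.07 to 22.1 and from 4.93 to 28.1 CPM per kb in the large subunit. Of the 3 paralogues that descend from bacterial S18, Mrps18c had 8.67 ± 0.979 CPM per kb in KO cortex and 9.04 ± 0.817 in WT cortex, above the other 2 (SD, n = 5 each). Mrps18a had 5.25 ± 0.233 in KO cortex and 5.76 ± 0.594 in WT cortex, and Mrps18b 5.28 ± 0.4999 and 5.78 ± 0.341 (CPM per kb, SD, n = 5 each).

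The spread between libraries of 1 group set how small a difference could be seen. The SD of the log2 level within groups had a median of 0.12 over the 78 genes. It was smallest for Mrpl49 at 0.058, Mrpl50 at 0.059 and Mrps2 at 0.063, and largest for Mrpl14 at 0.21, Mrps28 at 0.21 and Mrps24 at 0.20.

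The genotypes were compared first in frontal cortex, which asks how tissue of Ncs1-/- mice differs. Trub2 rose in KO cortex, and 0 of the 78 ribosomal protein genes passed the test in either direction. Trub2 had 33.1, 35.7, 36.4, 34.8 and 36.2 CPM in KO cortex, against 22.2, 22.97, 25.5, 27.4 and 22.8 CPM in WT cortex. Every KO library lay above every WT library. The log2 fold change was 0.54 (SE 0.06, 95% interval 0.41 to 0.68), with an adjusted p of 0.00293 from edgeR's quasi-likelihood test with Benjamini-Hochberg adjustment over all genes. Of 14823 genes tested in cortex, 4 passed an adjusted p of 0.05, which is 0.027%.

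In hippocampus the level of Trub2 was 36.3, 32.3, 35.2, 34.6 and 33.6 CPM in KO libraries, against 23.5, 21.1, 26.3, 23.9 and 20.4 CPM in WT libraries. Again no KO library reached down to the WT range. The log2 fold change was 0.58 (SE 0.07, 95% interval 0.42 to 0.73), with an edgeR adjusted p of 0.0121. The call was lost when any of KO hippocampus replicate 1, 3 or 4 or WT hippocampus replicate 2 was left out, at log2 fold changes of 0.55, 0.57, 0.58 and 0.54 and adjusted p-values of 0.0567, 0.0677, 0.0617 and 0.0779. Between regions, Trub2 differed by -0.06 on the log2 scale in KO (SE 0.05) and by -0.10 in WT (SE 0.08), hippocampus over cortex, and passed in neither genotype (edgeR adjusted p 0.367 in KO and 0.356 in WT).

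Trub2 lies on chromosome 2 at chr2:29774684-29787671 on the minus strand (mm10), 1.46 Mb from Ncs1. It overlaps Coq4, a gene of coenzyme Q synthesis, on the other strand. Coq4 had a log2 fold change of -0.00 in cortex (SE 0.09) and -0.20 in hippocampus (SE 0.09, unadjusted p 0.0372), and passed in neither region. Of the 78 genes, 4 are on chromosome 2, and Mrps2 at 2.77 Mb and Mrpl41 at 6.27 Mb are the ones within 10 Mb of Ncs1.

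Set against Trub2, the ribosomal protein genes had small fold changes. In cortex 72 of the 78 had a log2 fold change below 0 and 6 above, with a range from -0.26 to 0.14 and a median of -0.07. Over all genes tested 49.4% were below 0, and the median was 0.00. At an unadjusted p under 0.05 there were 13 of the 78, 12 lower and 1 higher, where 14.8% of all genes were at that level. DESeq2 and limma-voom also called 0 of the 78. Over all genes DESeq2 called 71 (0.407%) higher and 80 (0.459%) lower of 17442, and limma-voom 2 (0.0135%) in each direction. The smallest DESeq2 adjusted p among the 78 was 0.0932. For 67 of the 78 the 95% interval lay within 0.32 of 0 on the log2 scale, which is 1.25-fold either way, and for all 78 the upper bound lay under the lower bound for Trub2. Trub2 was chosen with its change known, so its distance from the 78 is a description and no test.

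**Figure D2:**
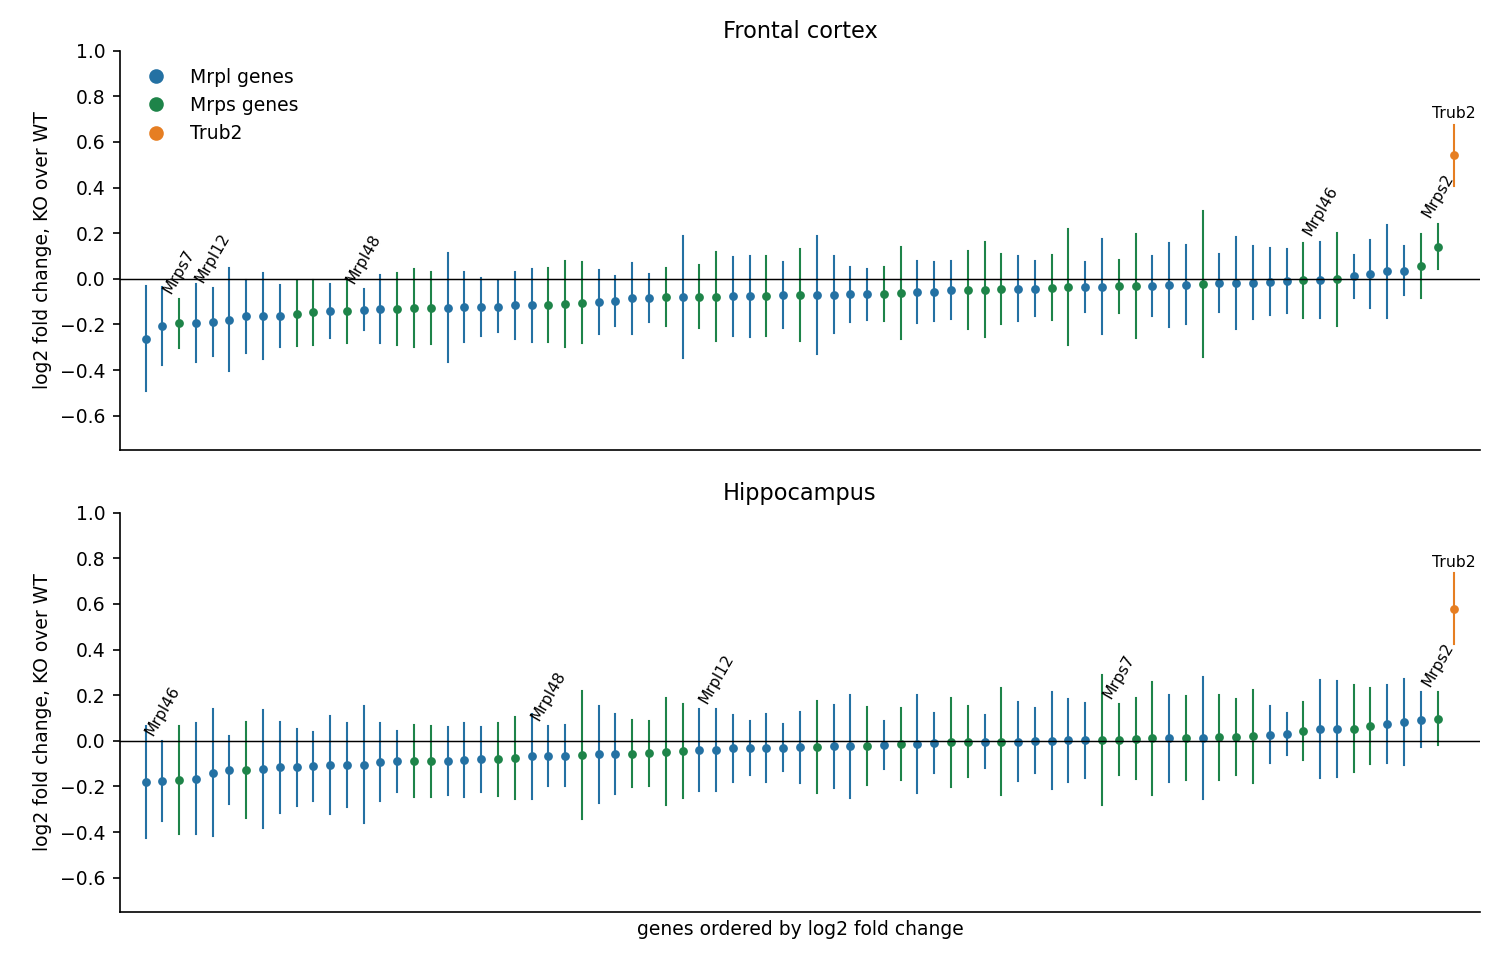
Log2 fold change of the 78 genes and of Trub2, KO over WT, in frontal cortex (top) and hippocampus (bottom); points are estimates from 5 against 5 libraries and lines are 95% intervals. In cortex 72 of 78 points lie below 0 and in hippocampus 53, while Trub2, chosen with its change known, stands at 0.54 and 0.58 above every interval of the 78.

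The 6 ribosomal protein genes with the smallest p in cortex are Mrps7, Mrpl48, Mrps2, Mrpl12, Mrpl53 and Mrpl9, and none of them passed. Mrps7, which encodes a small-subunit protein that binds the subunit's RNA, had 24.0, 24.7, 26.0, 24.8 and 25.1 CPM in KO cortex, against 29.8, 28.2, 27.3, 29.6 and 27.8 CPM in WT cortex. All KO libraries were below all WT libraries, and the log2 fold change was -0.20 (SE 0.05, edgeR adjusted p 0.211). Mrps7 overlaps Mif4gd on the opposite strand. Mrpl48, a protein of the central protuberance of the large subunit, had 48.5, 47.8, 49.8, 45.2 and 46.6 CPM in KO cortex, against 52.7, 54.4, 50.7, 51.8 and 51.6 CPM in WT cortex. Its groups did not overlap either, with a log2 fold change of -0.13 (SE 0.04, edgeR adjusted p 0.235). Mrpl48 overlaps Rab6a, a gene of vesicle traffic, on the opposite strand.

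Mrps2, whose product is a small-subunit protein with a bacterial homologue, had higher values in KO. It had 32.4, 34.1, 30.9, 32.9 and 31.4 CPM in KO cortex, against 29.6, 29.6, 30.02, 28.4 and 28.9 CPM in WT cortex. Every KO library was above every WT library, at a log2 fold change of 0.14 (SE 0.05, edgeR adjusted p 0.243). Mrps7, Mrpl48 and Mrps2 were the 3 of 78 genes whose groups did not overlap in cortex, where 2.15% of all genes tested had no overlap. In hippocampus Mrps2 had 37.0, 35.9, 35.3, 34.1 and 37.5 CPM in KO libraries, against 33.7, 33.1, 35.9, 34.9 and 30.6 CPM in WT libraries. Those groups overlapped, and the log2 fold change of 0.10 (SE 0.05) had an edgeR adjusted p of 0.991.

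Mrpl12 encodes a protein of the ribosomal stalk that is also known to bind the mitochondrial RNA polymerase Polrmt. Its levels were 27.4, 23.8, 24.0, 22.1 and 24.0 CPM in KO cortex, against 30.6, 27.5, 26.3, 29.0 and 25.1 CPM in WT cortex. The groups overlapped through KO replicate 1 and WT replicates 3 and 5, and the log2 fold change was -0.19 (SE 0.07, edgeR adjusted p 0.265). Polrmt itself had a log2 fold change of -0.12 in cortex (SE 0.06) and 0.00 in hippocampus (SE 0.07). Mrpl53, with a log2 fold change of -0.21 (SE 0.08), overlaps Ccdc142 on the same strand, and Mrpl9 stood at -0.14 (SE 0.06). Either had an edgeR adjusted p of 0.279.

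**Figure D3:**
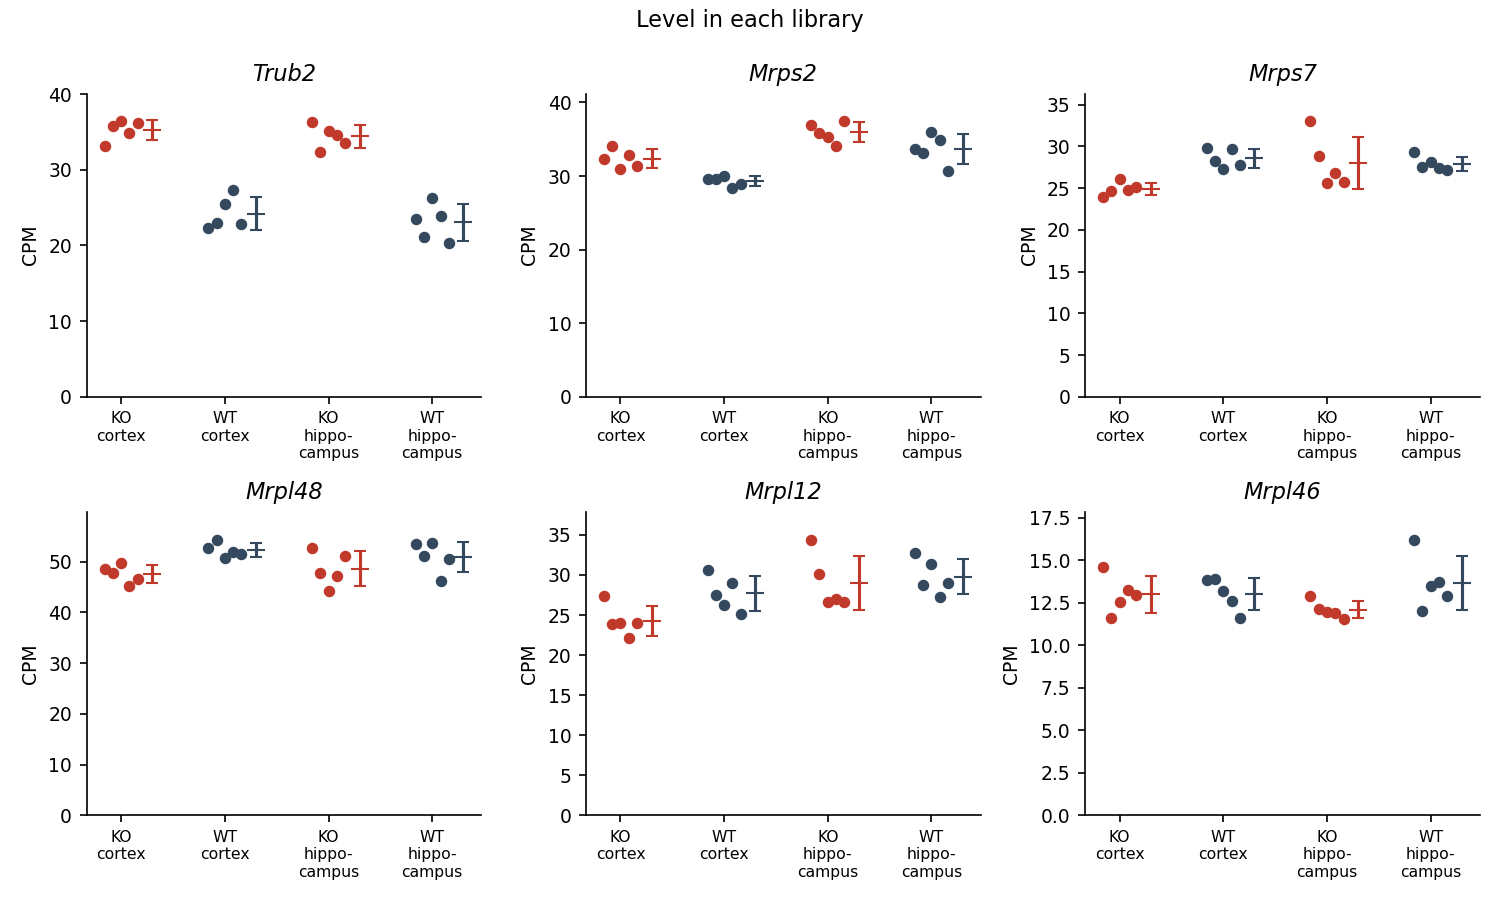
Level in CPM of Trub2 and 5 ribosomal protein genes in each of 20 libraries; points are libraries in the order of their replicate number, and bars are the mean and SD of 5. KO libraries lie apart from WT libraries for Trub2 in both regions, and for Mrps2, Mrps7 and Mrpl48 in cortex alone.

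In hippocampus, too, 0 of the 78 genes passed, where 4 of 15042 genes did, or 0.0266%. None of the 78 reached an unadjusted p under 0.05, against 3.78% of all genes, and DESeq2 and limma-voom called none of them. Over all genes DESeq2 called 3 (0.0171%) in each direction and limma-voom 2 (0.0133%). Below 0 were 53 of 78, against 46.9% of all genes, with a median of -0.03 and a range from -0.18 to 0.10. The groups were apart for 0 of the 78, against 0.479% of all genes. The smallest p belonged to Mrpl46, of the central protuberance, with 12.9, 12.1, 11.97, 11.9 and 11.6 CPM in KO hippocampus, against 16.2, 12.04, 13.5, 13.7 and 12.9 CPM in WT hippocampus. WT replicate 2 lay inside the KO range, and the log2 fold change was -0.18 (SE 0.08, edgeR adjusted p 0.991). Mrpl32 had -0.13 (SE 0.07), Mrpl10 -0.11 (SE 0.07), Mrpl36 -0.18 (SE 0.11) and Mrpl1 0.09 (SE 0.06), each with the same adjusted p. The interval lay within 1.25-fold for 68 of the 78 genes, and all 78 upper bounds were under the lower bound for Trub2, again a description only.

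Mrps7, first in cortex by its p, had a log2 fold change of 0.01 in hippocampus (SE 0.07), and the difference between the regions, 0.19 (SE 0.09), had an unadjusted p of 0.0367 and an edgeR adjusted p of 0.9998. Mrpl55 was the other of the 78 with an unadjusted p under 0.05 for that difference, at 0.27 (SE 0.12), where 1.4% of all genes were. No gene of 15310 passed the test of the difference between regions, which is 0%. Trub2 differed by 0.03 between regions (SE 0.10). Below 0 in both regions were 50 of the 78, against 34% of genes tested in both, and 3 were above 0 in both, Mrps2, Mrps9 and Mrpl19.

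By role, no class of the 78 passed in any member. In cortex the log2 fold change was below 0 for 26 of 29 large-subunit genes with a bacterial homologue (median -0.07) and for 16 of 17 without (median -0.07). In the small subunit it was below 0 for 12 of 14 genes with a bacterial homologue (median -0.06) and for 9 of 9 without (median -0.08). In hippocampus the medians of the same 4 classes were -0.03, -0.06, -0.03 and -0.00. The 3 genes of the stalk, which recruits translation factors, were below 0 in both regions, with a median of -0.10 in cortex and -0.06 in hippocampus. So were all 6 genes of the central protuberance in hippocampus and 5 of them in cortex. The 6 genes around the polypeptide exit, among them the membrane anchor Mrpl45, had medians of -0.03 in cortex and -0.06 in hippocampus. Mrps18a, Mrps18b and Mrps18c were at -0.13, -0.13 and -0.06 in cortex and at 0.02, -0.03 and 0.07 in hippocampus.

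Other genes of mitochondrial gene expression were set beside the 78. The partners of Trub2 did not pass in either region: Rpusd4 had a log2 fold change of -0.22 in cortex (SE 0.11) and 0.04 in hippocampus (SE 0.10), Rpusd3 -0.18 and -0.11, Rcc1l -0.18 and 0.02, Ngrn -0.10 and -0.02, and Fastkd2 -0.02 and -0.06. Of 10 other pseudouridine synthases 0 passed. Trub1, the paralogue of Trub2, had 0.18 in cortex (SE 0.07, edgeR adjusted p 0.280), and Pus10 had 0.23 in hippocampus (SE 0.08, edgeR adjusted p 0.991). Likewise 0 passed of 21 genes of ribosomal RNA modification and ribosome assembly, 17 translation factors, 20 mitochondrial aminoacyl-tRNA synthetases and 19 genes of mitochondrial transcription and RNA processing. In those lists Ddx28, a helicase of large-subunit assembly, was at -0.29 in cortex (SE 0.08) and 0.10 in hippocampus (SE 0.09), and the elongation factor Tufm at -0.15 (SE 0.06) and -0.13 (SE 0.06).

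Values below 0 were also frequent in lists outside the mitochondrial ribosome. Of 77 nuclear-encoded genes of the respiratory chain, 77 were below 0 in cortex (median -0.12) and 71 in hippocampus (median -0.06). Of 76 genes of cytosolic ribosomal proteins, 75 were below 0 in cortex (median -0.09) and 56 in hippocampus (median -0.03). None of these genes passed the adjusted test. In cortex 41 of the 77 and 14 of the 76 had an unadjusted p under 0.05, where 14.8% of all genes were at that level.

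Fold changes also varied with gene length. Across genes, the cortex log2 fold change had a correlation of 0.22 with log2 exonic length (14558 genes) and the hippocampus one of 0.19 (14772 genes), values that come from the same libraries for every gene. For each library the median log2 deviation of the 78 genes from the mean of its region was computed. It was -0.095 to 0.019 in KO cortex and -0.059 to 0.093 in WT cortex, where WT replicate 5 was the lowest and the other WT libraries were at 0.041 or above. In KO hippocampus it was -0.13 to 0.18, with KO replicate 1 highest, and in WT hippocampus -0.049 to 0.091. The slope of all genes with length stood at 0.036 in WT cortex replicate 5 and at -0.022 or below in the other WT cortex libraries, and at -0.088 in KO hippocampus replicate 1. With the trend with length removed from each library, 56 of the 78 genes were below 0 in cortex with a median of -0.04. There 4 of the 78 (5.13%) had an unadjusted p under 0.05 in edgeR, against 12.6% of all genes. In hippocampus 47 were below 0, with a median of -0.01.

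The medians changed when either of those 2 libraries was left out. Without WT cortex replicate 5, 20 of the 78 genes (25.6%) had an unadjusted p under 0.05, against 23.3% of all genes, and the median was -0.10. Still 0 of the 78 passed, with a smallest edgeR adjusted p of 0.0501. Of all 14915 genes tested, 391 (2.62%) passed as higher and 172 (1.15%) as lower. Without KO hippocampus replicate 1, 74 of 78 were below 0, the median was -0.11 and 14 (17.9%) had an unadjusted p under 0.05, against 13.9% of all genes, with 0 of the 78 passing. KO cortex replicate 1 was the highest of its group, at 0.019 with a slope of -0.019. Without it the cortex median was -0.09, and 0 of the 78 passed. There 15 (19.2%) had an unadjusted p under 0.05 in edgeR, against 19.8% of all genes.

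**Figure D4:**
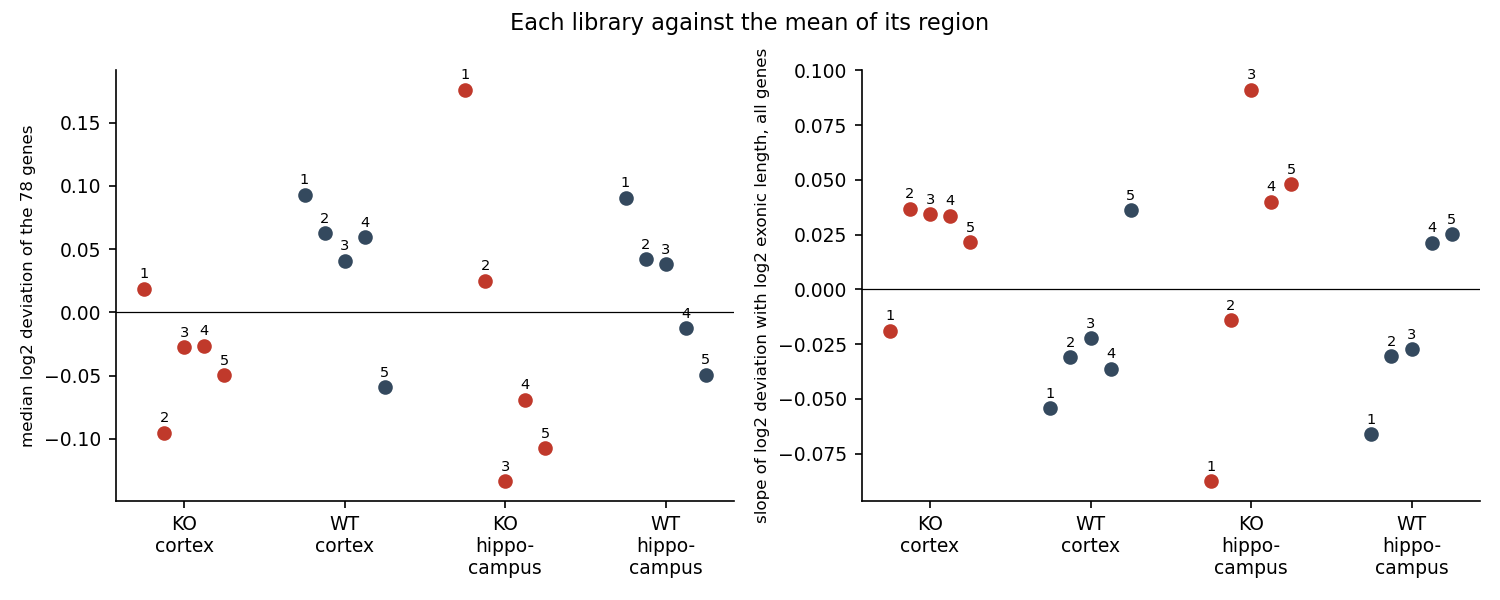
Left, median log2 deviation of the 78 genes from the mean of the region, per library; right, slope of the log2 deviation with log2 exonic length over all genes, per library; numbers are replicates. WT cortex replicate 5 (-0.059, slope 0.036) and KO hippocampus replicate 1 (0.18, slope -0.088) lie away from the rest of their groups on both axes. KO cortex replicate 1 (0.019, slope -0.019) also lies outside the range of the rest of its group on both.

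Markers of other cells were compared beside the genotype result, and their part in it was not tested. In cortex the 4 neuron markers summed to 5951 to 6368 CPM in KO and 6098 to 7141 CPM in WT, with a median log2 fold change of -0.08. The 5 astrocyte markers had a median of -0.13 in cortex and -0.10 in hippocampus. The striatal markers, with sums given above, had a median of 0.22 in cortex. The 6 choroid plexus markers summed to 211 to 604 CPM in KO cortex against 208 to 248 CPM in WT cortex, and to 151 to 5560 CPM in KO hippocampus against 188 to 3641 CPM in WT hippocampus. No marker of any list was at 0 in a whole group, and none passed between genotypes. In tissue RNA, fewer cells of a type and less RNA per cell cannot be told apart.

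Between the regions, some ribosomal protein genes passed the test, and those were mostly higher in hippocampus. In KO mice 22 of 78 were higher and 0 lower, where 19.2% of all genes were higher and 19.6% lower. In WT mice 17 were higher and 2 lower, where 18.8% of all genes were higher and 20.7% lower. The median log2 fold change of the 78, hippocampus over cortex, was 0.14 in KO and 0.08 in WT, against 0.01 over all genes in each. In WT the share called higher, 21.8%, was near that of all genes. In KO it was 28.2%, a share that depended on single libraries. Without KO hippocampus replicate 1 the KO median was 0.07. There 17 (21.8%) were higher and 4 (5.13%) lower, against 19.9% and 19.2% of all genes. Few of the 78 were called lower in either genotype. Region and count table go together in this design, so a difference of region and a difference of processing cannot be told apart.

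Called higher in hippocampus in both genotypes were 11 of the 78, against 15.3% of all genes: Mrpl9, Mrpl10, Mrpl11, Mrpl37, Mrpl38, Mrpl41, Mrpl50, Mrps9, Mrps22, Mrps33 and Mrps34. None was called lower in both, against 17% of all genes. Mrpl10, a stalk protein, had 46.5, 40.6, 37.2, 41.7 and 38.0 CPM in KO hippocampus, against 35.8, 30.4, 30.5, 32.7 and 29.8 CPM in KO cortex. In WT it had 45.6, 45.2, 47.6, 42.2 and 40.1 CPM in hippocampus, against 35.6, 35.5, 35.2, 34.4 and 29.9 CPM in cortex. The regions did not overlap in either genotype. The CPM of single genes were TMM-scaled within each region, while the regional log2 fold changes come from both regions scaled together. The log2 fold change was 0.33 in KO (SE 0.07, edgeR adjusted p 0.00271) and 0.34 in WT (SE 0.06, edgeR adjusted p 0.000787). The other stalk genes were Mrpl11, at 0.19 in KO and 0.20 in WT, and Mrpl12, at 0.23 in KO (SE 0.09, edgeR adjusted p 0.0484) and 0.08 in WT (SE 0.07, edgeR adjusted p 0.402).

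Mrpl38, of the central protuberance, had 29.8, 27.0, 24.0, 28.4 and 25.9 CPM in KO hippocampus, against 21.2, 19.9, 21.2, 21.5 and 21.0 CPM in KO cortex. In WT the levels were 30.4, 25.6, 27.9, 28.5 and 25.5 CPM in hippocampus, against 22.8, 19.7, 22.1, 21.4 and 22.0 CPM in cortex. Again no library of one region entered the range of the other, and the log2 fold change was 0.34 in KO (SE 0.07) and 0.32 in WT (SE 0.06). Mrps33, a small-subunit protein without a bacterial homologue, averaged 36.5 ± 5.15 CPM in KO hippocampus and 29.2 ± 1.59 CPM in KO cortex, and 36.3 ± 0.389 CPM in WT hippocampus and 30.6 ± 1.56 CPM in WT cortex (SD, n = 5 each). Mrps22, a small-subunit protein without a bacterial homologue, was at 0.27 in KO (SE 0.08) and 0.25 in WT (SE 0.06), and Mrps34, another, at 0.27 (SE 0.10) and 0.32 (SE 0.09). The call of Mrps22 in KO was lost without KO cortex replicate 2, at 0.24 with an edgeR adjusted p of 0.0531. Mrpl9, a large-subunit protein with a bacterial homologue, stood at 0.30 in KO (SE 0.05) and 0.17 in WT (SE 0.05), and Mrpl37, without a bacterial homologue, at 0.21 (SE 0.07) and 0.19 (SE 0.05).

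The 2 genes called lower in hippocampus, both in WT, were Mrps36 and Mrpl14, Mrps36 being named after its value was seen. Mrps36 had a log2 fold change of -0.22 in KO (SE 0.11, edgeR adjusted p 0.151) and -0.29 in WT (SE 0.08, edgeR adjusted p 0.00891). Mrpl14, a large-subunit protein with a bacterial homologue, had 8.63, 6.19, 5.50, 6.29 and 5.98 CPM in KO hippocampus, against 8.84, 6.53, 8.09, 6.76 and 10.3 CPM in KO cortex. In WT it had 7.63, 8.34, 7.001, 6.59 and 6.48 CPM in hippocampus, against 9.50, 8.66, 9.23, 7.94 and 7.32 CPM in cortex. The ranges overlapped in both genotypes, with log2 fold changes of -0.33 in KO (SE 0.15, edgeR adjusted p 0.102) and -0.28 in WT (SE 0.10, edgeR adjusted p 0.0450). The largest regional fold change in KO, also named after its value was seen, was that of Mrpl52 at 0.44 (SE 0.14, edgeR adjusted p 0.0245), against 0.16 in WT (SE 0.09, edgeR adjusted p 0.161). The test of that difference gave 0.27 (SE 0.17, unadjusted p 0.121). None of the 78 was called in opposite directions in the 2 genotypes.

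**Figure D5:**
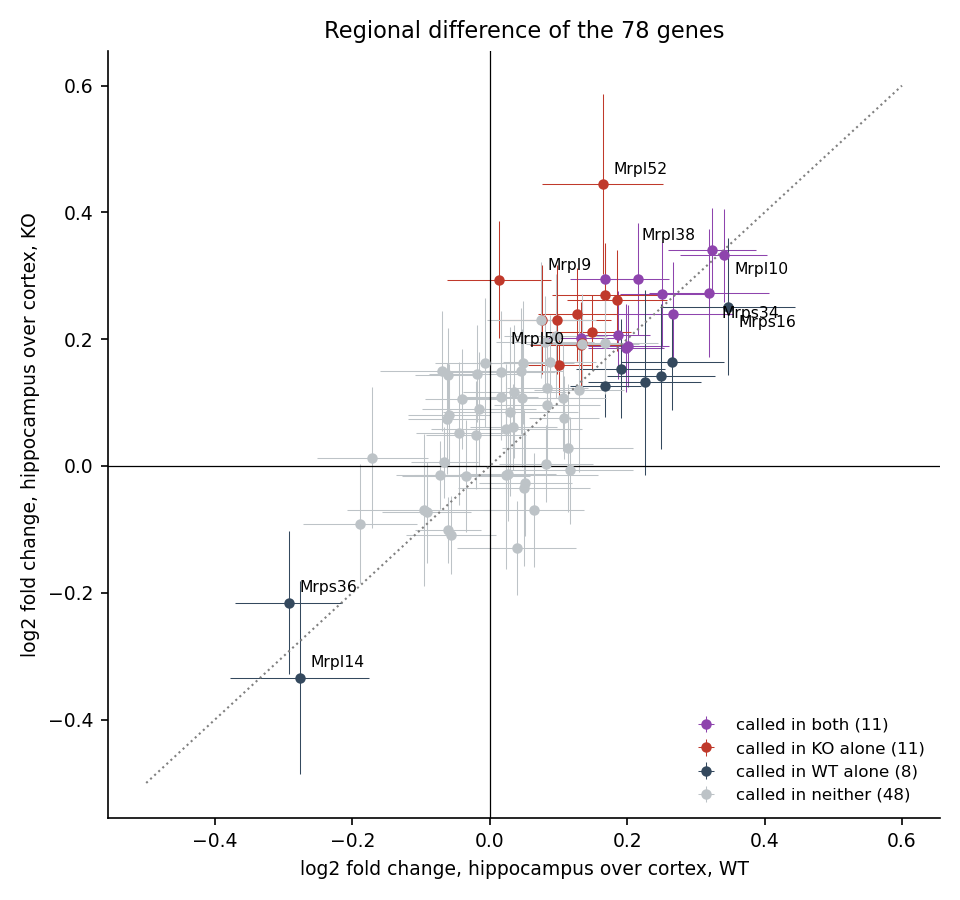
Log2 fold change of the 78 genes, hippocampus over cortex, in WT mice (horizontal) and KO mice (vertical); points are estimates from 5 against 5 libraries with their SE, and the dotted line marks equal values. The 11 genes called in both genotypes lie in the upper right, and Mrps36 and Mrpl14 in the lower left.

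The count of regional calls in KO depended on single libraries, and the share over all genes moved less. It was 10 higher (12.8%) without KO cortex replicate 2, against 16.3% of all genes, and 14 (17.9%) without KO cortex replicate 3 or 5, against 16.5% and 16.7% of all genes. It was also 10, against 15% of all genes, without KO hippocampus replicates 2 and 4, which with WT hippocampus replicate 4 held over 100 CPM of the choroid plexus transcript Ttr. Neuron markers were lower in hippocampus, with 4 of 4 called in each genotype and medians of -0.28 in KO and -0.34 in WT. They summed to 4790 to 5302 CPM in KO hippocampus against 5951 to 6368 CPM in KO cortex, and to 4872 to 5473 CPM in WT hippocampus against 6098 to 7141 CPM in WT cortex. Of the 5 oligodendrocyte markers 3 were called higher in each genotype, with medians of 0.28 in KO and 0.26 in WT, and summed to 3344 to 5085 CPM in KO hippocampus against 3191 to 3448 CPM in KO cortex, and to 3404 to 4735 CPM in WT hippocampus against 2751 to 3627 CPM in WT cortex. The part of these cells in the regional values was not tested.

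Among the partners of Trub2, Rpusd3 was higher in hippocampus by 0.98 on the log2 scale in KO (SE 0.14) and 0.90 in WT (SE 0.11), and Rpusd4 by 0.51 in KO (SE 0.10, edgeR adjusted p 0.000867) but 0.24 in WT (SE 0.12, edgeR adjusted p 0.130). The test of the difference for Rpusd4 gave 0.25 (SE 0.15, unadjusted p 0.105). Dap3, a small-subunit protein whose symbol falls outside the rule, rose by 0.20 in KO (SE 0.06) and 0.23 in WT (SE 0.05). Of the respiratory chain genes, 12 of 77 were higher and 0 lower in KO hippocampus, where 19.2% of all genes were higher and 19.6% lower. In WT hippocampus 10 of the 77 were higher and 3 lower, where 18.8% of all genes were higher and 20.7% lower.

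Promoter windows show what the start sites of these genes share in sequence. Windows of 300 bases, from 250 before to 50 after the start, were found in the RefSeq table of assembly GRCm38.p6 for 69 of the 78 genes. Short motifs of factors known for genes of mitochondrial proteins and of ribosomes were searched as exact letters on both strands. The NRF1 motif GCGCANGCG was in 23.2% of the 69 windows, against 12.7% of 12020 windows of genes that passed the filter and 6.25% of all 32851 windows. The ETS motif CCGGAAG was in 34.8%, against 16.2% and 8.86%. The YY1 motif AAGATGGCG was in 11.6%, against 2.77% and 1.40%. The NFY motif CCAAT was in 39.1%, against 38.3% and 37.4%, and the SP1 motif GGGCGG in 49.3%, against 62.5% and 35.7%. The median GC content was 58.3% in the 69 windows, 60.7% in those of filtered genes and 52.7% in all. A match is a description of letters, not a binding site.

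Windows are printed for Trub2 and for some of the genes named above, with motif matches on either strand in capitals. Trub2 (chr2:29787622-29787921, minus strand) rose in both regions and holds 1 SP1 match. Mrps2 (chr2:28467816-28468115, plus strand), above 0 in both regions and 2.77 Mb from Ncs1, holds none of the 5 motifs. Mrps7 (chr11:115603890-115604189, plus strand), first by its p in cortex, holds 2 SP1 matches. The other windows are from genes called higher in hippocampus in both genotypes: Mrpl10 (chr11:97041332-97041631, plus strand) with 1 NRF1 match, Mrpl37 (chr4:107066817-107067116, minus strand) with 1 YY1, 2 NFY and 2 SP1 matches, and Mrps22 (chr9:98601630-98601929, minus strand) with 1 ETS and 1 SP1 match. Each is written 5′ to 3′ on the strand of the gene.
Trub2: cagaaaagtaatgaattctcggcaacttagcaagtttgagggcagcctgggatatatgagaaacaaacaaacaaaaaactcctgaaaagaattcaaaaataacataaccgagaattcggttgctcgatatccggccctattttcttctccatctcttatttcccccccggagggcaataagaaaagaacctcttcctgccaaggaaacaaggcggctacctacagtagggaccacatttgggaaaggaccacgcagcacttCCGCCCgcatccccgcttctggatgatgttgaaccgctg
Mrps2: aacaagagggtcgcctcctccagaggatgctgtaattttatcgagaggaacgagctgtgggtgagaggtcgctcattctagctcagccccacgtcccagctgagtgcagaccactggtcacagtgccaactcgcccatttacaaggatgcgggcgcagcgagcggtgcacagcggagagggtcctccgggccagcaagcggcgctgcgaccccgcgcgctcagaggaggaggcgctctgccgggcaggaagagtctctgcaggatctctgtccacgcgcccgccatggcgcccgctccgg
Mrps7: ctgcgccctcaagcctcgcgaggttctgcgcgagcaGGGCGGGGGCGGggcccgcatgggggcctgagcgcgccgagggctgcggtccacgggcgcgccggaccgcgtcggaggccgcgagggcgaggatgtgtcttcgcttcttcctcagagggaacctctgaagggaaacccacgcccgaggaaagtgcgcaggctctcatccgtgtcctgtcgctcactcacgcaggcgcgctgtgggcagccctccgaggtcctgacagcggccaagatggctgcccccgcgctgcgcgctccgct
Mrpl10: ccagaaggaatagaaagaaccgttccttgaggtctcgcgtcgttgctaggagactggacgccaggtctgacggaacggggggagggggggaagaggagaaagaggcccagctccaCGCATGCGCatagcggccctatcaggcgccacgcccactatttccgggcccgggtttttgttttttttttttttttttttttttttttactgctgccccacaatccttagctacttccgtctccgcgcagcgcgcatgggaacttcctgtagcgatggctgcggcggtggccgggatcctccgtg
Mrpl37: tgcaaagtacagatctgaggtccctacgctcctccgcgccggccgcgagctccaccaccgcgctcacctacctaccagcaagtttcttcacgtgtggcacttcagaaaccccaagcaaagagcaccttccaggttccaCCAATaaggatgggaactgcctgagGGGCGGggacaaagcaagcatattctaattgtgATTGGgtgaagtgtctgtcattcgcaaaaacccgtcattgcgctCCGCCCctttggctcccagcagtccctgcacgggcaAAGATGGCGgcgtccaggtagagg
Mrps22: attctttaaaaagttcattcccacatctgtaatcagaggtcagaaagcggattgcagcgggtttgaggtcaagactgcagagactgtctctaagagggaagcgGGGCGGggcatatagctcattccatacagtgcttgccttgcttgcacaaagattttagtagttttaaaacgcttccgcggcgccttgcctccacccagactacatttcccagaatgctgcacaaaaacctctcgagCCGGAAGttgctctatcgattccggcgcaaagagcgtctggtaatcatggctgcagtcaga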

How the data were processed

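Total RNA of dissected, frozen tissue was extracted with the RNeasy Mini kit and sequenced by Illumina protocols, per the labels' protocols. The authors deposited expected counts per gene, 1 table per region, unscaled. STAR 2.7.3a, Partek and mm10 are named in the submitters' processing notes, and these sources give neither annotation nor strand setting. A script checked that between 22.6% and 27.3% of a library's values were not whole (tolerance 0.001).

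Groups came from the sample titles. Rounded counts were tested in edgeR 4.0.16 (R 4.3.3): filterByExpr, TMM, quasi-likelihood tests, Benjamini-Hochberg adjustment over all genes at 0.05. Standard errors are the log2 fold change over the root of F, and 95% intervals are per gene, unadjusted. Log2 levels used a prior count of 2, and exonic lengths came from GENCODE. No libraries agreed within sampling noise. The fit was tested on simulated data. Alternatives were DESeq2 1.42.0, limma-voom (limma 3.58.1), other scalings and filters, a replicate block, single libraries left out, Rn45s removed, hippocampus libraries with over 100 CPM of Ttr left out, all libraries in 1 fit, and the length trend removed (lowess, span 0.3). Cortex libraries were not screened for Ttr and all stayed in that alternative.

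Named genes were Trub2 and Ncs1, the 6 genes with the smallest p per genotype comparison, up to 6 called in both genotypes between regions, the 5 highest and 5 lowest per length, the 3 most and least variable, those within 10 Mb of Ncs1, and the S18 paralogues. Other list genes were named where they passed, or the 1 with the smallest p; the partners of Trub2, the other genes called between regions, Coq4, Mrpl52, Mrpl55, Mrps36 and Dap3 were named after their values were seen. The genes, lists and alternatives were chosen with earlier results of these data known.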

Additional observations from a re-analysis of the deposited data

Results flagged for a closer look

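Of 184 groups of 5 libraries examined, 11 had a library far from the other 4 by Dixon's criterion, which chance alone meets in about 1 in 20 groups. In KO hippocampus, replicate 1 was high in Mrps33 (45.5 CPM), in Mrpl14 (8.63 CPM) and in Gadd45gip1 (24.98 CPM), which encodes a large-subunit protein with another kind of symbol. In KO cortex, Mrpl38 was low in replicate 2 (19.9 CPM) and Mrpl49 low in replicate 3 (27.6 CPM). In WT cortex, replicate 5 was low in Mrpl10 (29.9 CPM) and in Mrpl41 (17.9 CPM). In WT hippocampus, Mrpl41 was high in replicate 1 (31.9 CPM), Mrpl23 low in replicate 4 (5.38 CPM), Mrpl49 low in replicate 2 (32.5 CPM) and Ncs1 high in replicate 3 (470 CPM).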

How the results depend on the processing

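Under each alternative run, 0 of the 78 genes passed in either genotype comparison, and the medians, single libraries left out aside, were -0.08 to -0.04 in cortex and -0.04 to -0.01 in hippocampus. With single libraries left out they were -0.10 to -0.06 and -0.11 to -0.01. For Trub2 in hippocampus the log2 fold change was 0.54 to 0.63 with single libraries left out. Without the 3 hippocampus libraries of over 100 CPM Ttr it was 0.61 with an edgeR adjusted p of 0.416, in a fit with fewer samples. Its difference between regions was -0.018 to 0.083 with single libraries left out, and below 0 in 3 cases (-0.018, -0.0028 and -0.014). The median difference of the 78 genes between regions was -0.025 to 0.067, with the lowest value without KO hippocampus replicate 1.

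Genes called lower in WT hippocampus numbered 1 with total-count scaling, with no filter and without the libraries of over 100 CPM Ttr. Over all genes 18.5%, 17.4% and 19.6% were lower there. The number was 4 (5.13%) with the length trend removed, against 20.9% of all genes. With single libraries left out it was 1 to 3, against 18.4% to 20.4% of all genes. In KO hippocampus 3 (3.85%) were lower with the length trend removed, against 20.4% of all genes. With single libraries left out 0 to 4 were lower, against 17.3% to 20.3% of all genes. The count called higher in KO hippocampus was 10 to 23 with single libraries left out, against 16.3% to 19.9% of all genes. It was 10 (12.8%) without the libraries of over 100 CPM Ttr, against 15% of all genes. There Mrps22 had a log2 fold change of 0.22 (edgeR adjusted p 0.116). In WT hippocampus the count called higher was 12 to 17 with single libraries left out, against 16.8% to 18.9% of all genes. The 12 (15.4%, against 18.3% of all genes) came without WT hippocampus replicate 1. With the length trend removed, 14 were higher in WT (17.9%, against 19.9% of all genes) and 19 in KO (24.4%, against 20.7%). The causes were not tested.

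With the replicate block, 0 of the 78 genes passed between genotypes. Between regions in KO, 22 (28.2%) were higher and 0 lower, against 20.2% and 21.4% of all genes. In WT 18 (23.1%) were higher and 3 (3.85%) lower, against 21.4% and 23.3% of all genes. Libraries with the same number correlated by -0.06 to 0.14 between KO and WT cortex and -0.00 to 0.30 in hippocampus, by -0.14 to 0.19 between regions in KO and by 0.08 to 0.37 in WT. Since at least 1 number in each comparison had a correlation under 0.1 and the labels state no pairing, the block was kept as an alternative. In WT 5 of 5 libraries correlated best with their own number in the other region and in KO 3 of 5 did, a hint from the data, not the design, that the regions may be paired by number. Per length of the longest transcript the levels of 9 of the 10 highest and lowest genes moved by more than their SD. All 78 genes passed the filter on low counts. With 5 libraries a group, a change that is small beside the intervals given could have been missed.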
